A study of Homo sapiens with 4 samples.

Results

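The glycosyltransferases described here build, branch and cap the glycans of proteins and lipids. They were taken by name from the deposited gene table: protein-coding genes whose symbol starts with GALNT, MGAT, B3GNT, B3GALT, B4GALT, B4GALNT, ST3GAL, ST6GAL, ST8SIA or FUT followed by a digit. The rule gave 86 genes of the 19951 protein-coding genes and of the 58735 rows in the table. POFUT1 and POFUT2, whose symbols do not start with FUT, were not taken. RNA sequencing measured transcripts in H1299 cells, a line from a human non-small cell lung cancer grown in RPMI1640 medium with fetal bovine serum and labelled untreated. The KO group holds 2 libraries of H1299 cells in which TTC28 had been targeted by CRISPR/Cas9, and the WT group holds 2 libraries of unedited H1299 cells. The labels do not say whether the KO cells are 1 clone or a pool, nor whether replicates are separate cultures, so p-values measure only the spread between these libraries, which may be technical.

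Glycosyltransferases work mainly in the Golgi and pass a sugar from a nucleotide donor to a growing glycan. GALNT enzymes start mucin-type O-glycans by adding N-acetylgalactosamine (GalNAc) to serine or threonine, and MGAT enzymes add the N-acetylglucosamine (GlcNAc) residues from which the antennae of N-glycans grow. B3GNT, B3GALT, B4GALT and B4GALNT enzymes extend chains with GlcNAc, galactose or GalNAc. The ST families cap them with sialic acid, and FUT enzymes add fucose. In carcinoma cells these enzymes are known mostly for branched N-glycans, sialylated and fucosylated antigens and gangliosides on the cell surface.

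Libraries held 28885443 and 25120500 counts in KO replicates 1 and 2 and 25808423 and 27043491 counts in WT replicates 1 and 2. TTC28 (chromosome 22, 27978014 to 28679865, minus strand, hg38) was at 2.96 and 2.99 FPKM in KO replicates 1 and 2, against 4.88 and 5.44 FPKM in WT replicates 1 and 2; FPKM are fragments per kilobase of gene, normalised for library depth. The targeted transcript was thus lower in 2 of 2 KO libraries but present, with a log2 fold change (KO over WT) of -0.79 (SE 0.0764, adjusted p = 2.78e-06 by the edgeR quasi-likelihood test, with p-values adjusted over all tested genes by the Benjamini-Hochberg (BH) method), and the count does not examine the edited site or the protein. Mitochondrially encoded genes took 8.61% and 10.16% of the counts in KO libraries and 6.07% and 5.87% in WT libraries, and their part in the results was not tested. Of 11 epithelial and lung markers only KRT8 and KRT18 passed 1 FPKM in at least 2 libraries, with EPCAM, CDH1, NKX2-1 and SFTPC at no more than 0.214 FPKM in any library, whereas all 4 mesenchymal markers (VIM, CDH2, FN1 and ZEB1) passed. Summed levels of 6 immune markers were 0.0838 to 0.126 FPKM in KO and 0.138 to 0.188 FPKM in WT, those of 4 endothelial markers 0.317 to 0.319 FPKM in KO and 0.107 to 0.115 FPKM in WT, and those of 6 fibroblast markers 0.632 to 0.706 FPKM in KO and 0.233 to 0.365 FPKM in WT. None of these 16 markers passed the filter, and their part in the results was not tested. In bulk RNA, fewer cells that make a transcript and less transcript per cell cannot be told apart.

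Most of the tested glycosyltransferase genes differed between KO and WT cells, and more of them were higher than lower in KO. Among the tested members, the largest differences ran in opposite directions. GALNT14, a starter of O-glycans, had no count in KO, and MGAT5, which adds the β1,6 branch of N-glycans, was over 3-fold higher. A gene was tested where it reached at least 1 FPKM in at least 2 of the 4 libraries, which 41 of the 86 members did. Of the 41, 31 passed the threshold (adjusted p under 0.05), 21 higher and 10 lower in KO, beside 50.3% of all 13079 tested genes that passed, 25.1% higher and 25.2% lower. At a size of at least 0.5 on the log2 scale, 13 members were higher and 2 were lower, beside 11.3% and 10.4% of all tested genes. The 13 include B3GNTL1, ST6GAL1, ST8SIA4 and ST8SIA5, and the 2 include GALNT14, whose directions the filter fixed. The median log2 fold change was 0.27 over the tested members and -0.0001 over all tested genes. B3GNTL1, ST6GAL1, ST8SIA4 and ST8SIA5 passed the filter only through KO libraries and GALNT14 only through WT libraries, so that these 5 had to differ. Of the 36 members that passed it in both groups, 17 were higher, 9 were lower and 10 did not pass the threshold. Without WT replicate 2, 20 members were higher and 3 lower. On a TPM scale, where each library sums to the same amount per gene length, the median of all tested genes moved to -0.17, and 15 members were higher and 13 lower. On that scale 26.4% of all calls were higher, against 49.9% in the scaling used here.

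**Figure D1:**
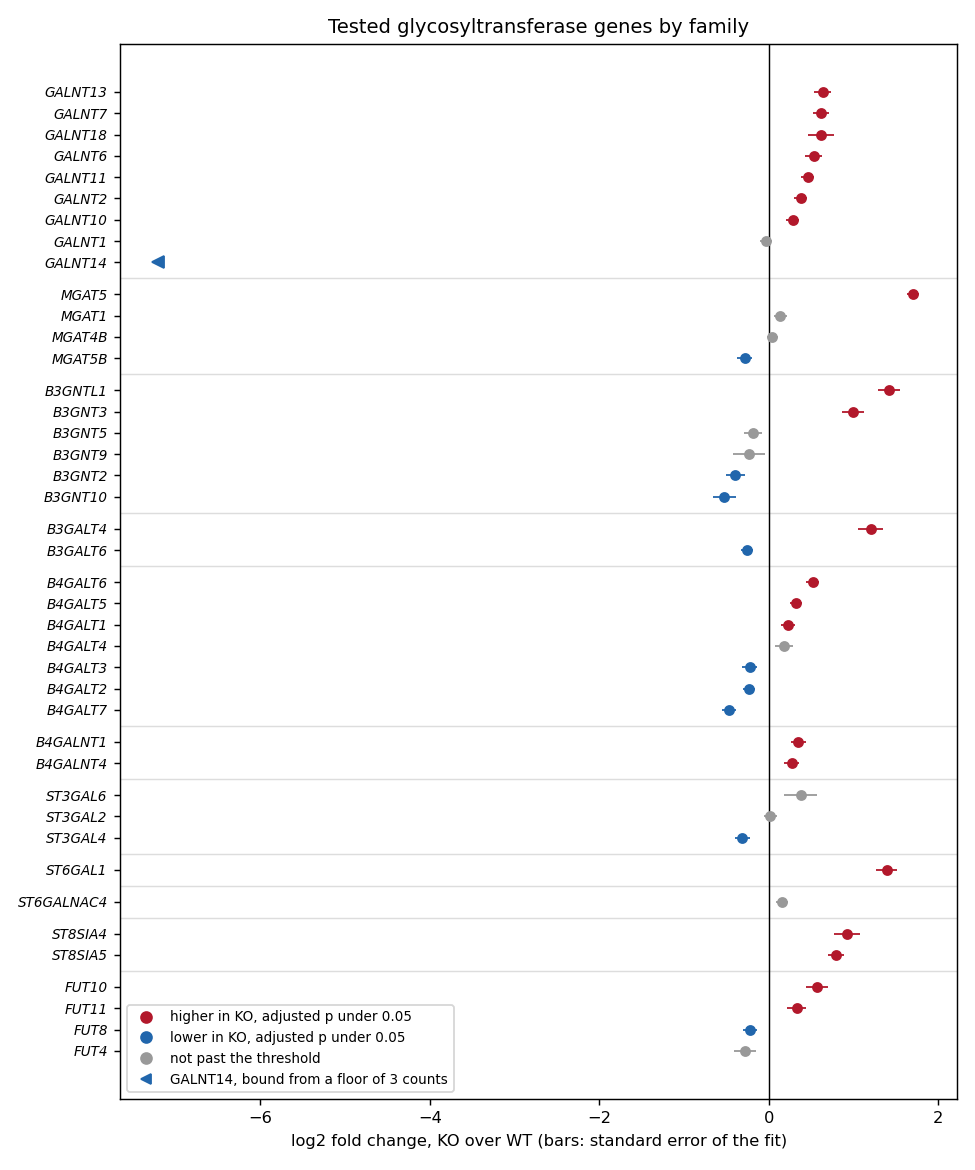
Log2 fold change of the 41 tested members, KO over WT, by family (points, edgeR estimate; bars, standard error; 2 KO and 2 WT libraries). The 7 higher GALNT genes lie right of 0, MGAT5 lies at 1.70, and the triangle marks GALNT14 at its bound, at least 7.20 lower, whose KO libraries held 0 counts.

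In O-glycan initiation most tested members were higher in KO, while GALNT14 was missing. Of 20 GALNT genes, 9 were tested: 7 were higher in KO, GALNT14 was lower and GALNT1 did not pass the threshold. The median log2 fold change of the 9 was 0.46. The 7 kept a positive value under every scaling and alternative that tested them, the smallest being 0.11 for GALNT10 on the TPM scale. The summed level of all 20 GALNT genes was 48.1 ± 0.580 FPKM in KO and 40.4 ± 1.03 FPKM in WT (SD, n = 2 each). GALNT1, GALNT2, GALNT10 and GALNT11 together made 73.3% and 71.9% of that sum in KO libraries and 72.8% and 74.1% in WT libraries, so the leading enzymes were the same in both groups.

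GALNT14 (chromosome 2, 30910467 to 31155202, minus strand) encodes a GalNAc-transferase known for modifying death receptors of the TRAIL pathway. GALNT14 was at 0 and 0 FPKM in KO replicates 1 and 2, against 1.65 and 2.05 FPKM in WT replicates 1 and 2. Raw counts were 0 and 0 in KO and 197 and 255 in WT. Both KO libraries were empty for this gene while both WT libraries had a clear count, and with a floor of 3 counts over the KO group the gene was at least 147-fold lower. GALNT14 and MGAT5 were chosen as the extremes of these data among tested members, so their values are a description, with no test. GALNT14 held 4.15% and 4.99% of the summed GALNT level in WT libraries.

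Tested genes around GALNT14 did not share its absence, but XDH, under the filter, had few counts left in KO. Of 6 tested genes within 1 Mb, EHD3, which encodes an endocytic recycling protein, was lower with a log2 fold change of -0.64 (adjusted p = 5.20e-04), MEMO1 was lower (-0.58, adjusted p = 5.77e-03, both by edgeR quasi-likelihood test, BH-adjusted), and YPEL5, SPAST, DPY30 and LCLAT1 did not pass the threshold. XDH, the xanthine dehydrogenase gene, was under the filter, with 4 and 3 counts in KO libraries and 97 and 87 counts in WT libraries, and its log2 fold change without a filter was -4.65. The median log2 fold change of the 50 nearest tested genes, 25 on each side, was -0.18.

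The start regions of GALNT14 and of the pair of N-glycan enzymes described next are shown so that the gene with no KO counts can be set beside genes that were higher. Each runs from 250 bases before to 50 bases after the most upstream start in the RefSeq table (GRCh38.p14, 5′ to 3′ on the gene's strand), and capitals mark GC boxes, GGGCGG on either strand. They are GALNT14 (chr2:31138391-31138690, minus strand), MGAT5 (chr2:134119685-134119984, plus strand) and ST6GAL1 (chr3:186930276-186930575, plus strand).
GALNT14: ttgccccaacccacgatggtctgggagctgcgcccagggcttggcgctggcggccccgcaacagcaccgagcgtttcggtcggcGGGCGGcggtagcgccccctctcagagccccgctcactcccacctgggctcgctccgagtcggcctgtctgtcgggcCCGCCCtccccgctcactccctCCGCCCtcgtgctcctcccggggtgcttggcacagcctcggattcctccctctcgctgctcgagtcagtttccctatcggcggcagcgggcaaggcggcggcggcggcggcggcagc
MGAT5: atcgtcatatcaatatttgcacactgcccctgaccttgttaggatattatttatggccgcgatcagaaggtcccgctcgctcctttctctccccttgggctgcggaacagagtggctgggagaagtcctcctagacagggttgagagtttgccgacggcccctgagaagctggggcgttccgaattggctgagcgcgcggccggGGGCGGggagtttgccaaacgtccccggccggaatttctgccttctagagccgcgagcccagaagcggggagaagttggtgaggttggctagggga
ST6GAL1: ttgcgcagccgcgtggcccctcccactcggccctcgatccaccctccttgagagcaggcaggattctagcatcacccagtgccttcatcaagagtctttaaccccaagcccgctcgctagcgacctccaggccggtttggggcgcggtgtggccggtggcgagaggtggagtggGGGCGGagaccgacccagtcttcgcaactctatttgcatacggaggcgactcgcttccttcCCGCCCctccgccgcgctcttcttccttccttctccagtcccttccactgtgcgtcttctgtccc
The window of GALNT14 held 3 GC boxes at a GC content of 73.7%, that of ST6GAL1 held 2 at 64.0%, and that of MGAT5 held 1 at 59.3%. On either strand, CCAAT was found only in MGAT5, and the TATA box TATAAA, the E box CACGTG and the ETS core CCGGAAG were in none of the windows. Of 35116 promoters in the same table, 45.0% hold GGGCGG, 34.6% CCAAT, 11.5% TATAAA, 7.26% CACGTG and 10.3% CCGGAAG, so these letters are common, and a match is no evidence of binding. The table had an entry for 60 of the 86 members. The deposited gene model of GALNT14 starts upstream of the RefSeq start.

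GALNT1, a widely expressed starter enzyme and the GALNT gene with the highest mean level, was at 10.3 and 10.4 FPKM in KO libraries and 10.7 and 10.5 FPKM in WT libraries. Its log2 fold change was -0.03 (SE 0.0695) and did not pass the threshold (adjusted p = 0.749, edgeR quasi-likelihood test, BH-adjusted). On the TPM scale GALNT1 passed as lower, at -0.20. GALNT2, another broadly acting starter, was at 9.95 and 9.06 FPKM in KO libraries and 7.06 and 7.65 FPKM in WT libraries. Its values did not overlap between the groups, with a log2 fold change of 0.37 (adjusted p = 8.12e-04 by the same test). A gene on the opposite strand, AL136988.1, shares 13.3% of the exonic bases of GALNT2, and whether the authors counted by strand is not stated.

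GALNT7 and GALNT10 prefer peptides that already carry a GalNAc, and both were higher in 2 of 2 KO libraries. GALNT7 was at 3.58 and 3.85 FPKM in KO libraries, against 2.30 and 2.55 FPKM in WT libraries, a log2 fold change of 0.62 (SE 0.0953, adjusted p = 1.43e-04 by edgeR quasi-likelihood test, BH-adjusted). GALNT10 had a smaller log2 fold change of 0.28 (adjusted p = 7.53e-03), which was 0.17 and no longer past the threshold without WT replicate 1, and which also did not pass on the TPM scale (0.11) or with limma (0.25). GALNT11, which glycosylates Notch and receptors of the LDL receptor family, had a log2 fold change of 0.46 (adjusted p = 1.54e-04).

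A further 3 GALNT genes with lower levels were also higher. GALNT6, a close relative of GALNT3, was at 3.20 and 2.98 FPKM in KO libraries, against 2.31 and 1.99 FPKM in WT libraries (log2 fold change 0.53, adjusted p = 8.77e-04, edgeR quasi-likelihood test, BH-adjusted). GALNT13, a relative of GALNT1 known from neurons, was at 3.04 and 3.01 FPKM in KO libraries, against 2.04 and 1.86 FPKM in WT libraries (0.64, adjusted p = 1.93e-04). GALNT18 was at 1.94 and 2.30 FPKM in KO libraries, against 1.40 and 1.38 FPKM in WT libraries (0.61, adjusted p = 5.00e-03). In each of the 3 genes both KO libraries were above both WT libraries; among all tested genes, 75.5% had KO and WT values without overlap. The 50 tested genes around GALNT13 had a median log2 fold change of 0.52. In a separate setting, called local median removed, the median log2 level of the neighbours was subtracted in each library. That median is one of levels and not of fold changes. In this setting GALNT13 was at 0.19 and GALNT6 at 0.37, neither past the threshold.

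**Figure D2:**
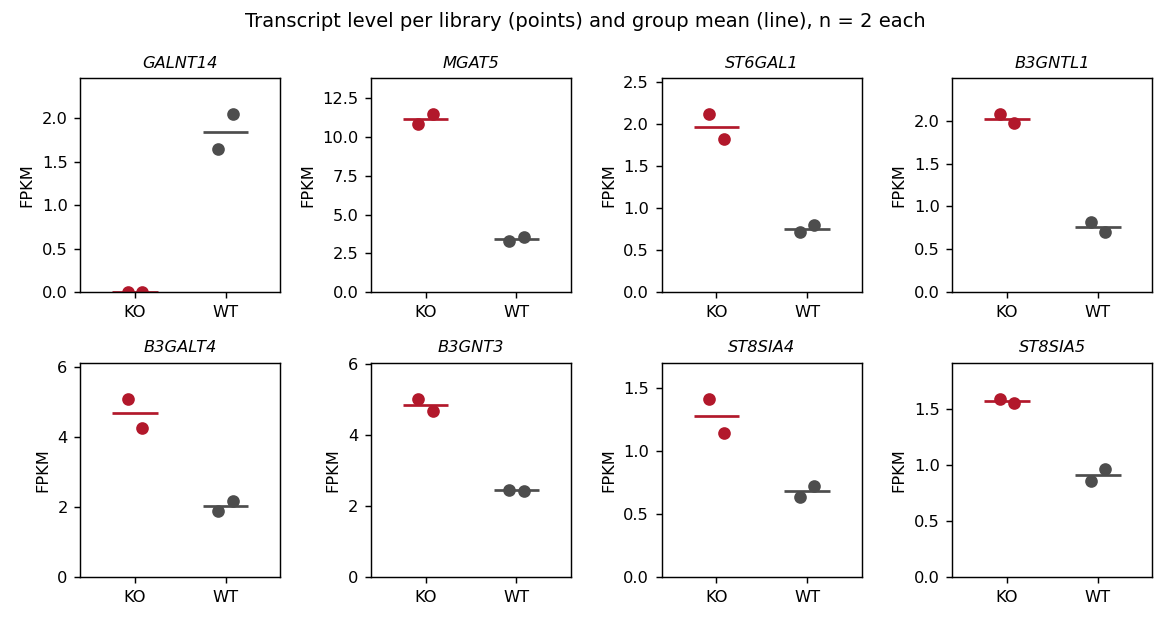
FPKM of 8 members in each library (points) with the group mean (line), KO left of WT, n = 2 each; each panel has its own axis from 0. GALNT14 is at 0 in both KO libraries and at 1.65 and 2.05 FPKM in WT, and in the other 7 genes both KO points lie above both WT points. For ST6GAL1, B3GNTL1, ST8SIA4 and ST8SIA5, which passed the filter only through KO, this had to be so. Among all tested genes, 75.5% had KO and WT values without overlap.

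Of the 9 MGAT genes of N-glycan branching, 4 were tested: MGAT5 was higher, MGAT5B was lower, and MGAT1 and MGAT4B did not pass the threshold. These 2 calls of 4 are near the 50.3% of all tested genes that passed. MGAT5 (chromosome 2, 134119983 to 134454621, plus strand) encodes GlcNAc-transferase V, whose β1,6 branch is the favoured site of poly-N-acetyllactosamine and of galectin binding. MGAT5 was at 10.8 and 11.5 FPKM in KO replicates 1 and 2, against 3.33 and 3.53 FPKM in WT replicates 1 and 2. Both KO libraries stood far above both WT libraries, by 3.26-fold, a log2 fold change of 1.70 (SE 0.0729).

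The share of MGAT5 within its family changed with its level. It made 9.98% and 11.2% of the summed MGAT FPKM in KO libraries, against 3.61% and 3.66% in WT libraries. MGAT4B, which adds the β1,4 branch to the other arm of the N-glycan and is the family's most abundant transcript, was at 77.8 and 73.2 FPKM in KO libraries and 72.2 and 74.9 FPKM in WT libraries. The groups of MGAT4B overlapped, at a log2 fold change of 0.04 (SE 0.0631, adjusted p = 0.611 by edgeR quasi-likelihood test, BH-adjusted), and its sign turned with total-count scaling (-0.02) and on the TPM scale (-0.13). It made 71.9% and 71.5% of the MGAT sum in KO libraries and 78.3% and 77.7% in WT libraries. MGAT1, which starts the first antenna, had a log2 fold change of 0.13 (adjusted p = 0.169). It passed the threshold as higher without KO replicate 2, at 0.24, and with the local median removed, at 0.33, and was at -0.03 on the TPM scale.

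MGAT5B, a relative of MGAT5 that branches O-mannose glycans and is known from brain, went the other way. It was at 4.31 and 4.49 FPKM in KO libraries, against 5.12 and 5.63 FPKM in WT libraries, a log2 fold change of -0.28 (adjusted p = 0.0129, edgeR quasi-likelihood test, BH-adjusted). Without WT replicate 2 the value was -0.22 and did not pass. MGAT5 therefore made 71.5% and 71.9% of the sum of MGAT5 and MGAT5B in KO libraries, against 39.4% and 38.5% in WT libraries. MGAT5B was the more abundant of the pair in both WT libraries and the less abundant in both KO libraries.

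Of 3 tested genes within 1 Mb of MGAT5, 2 were higher, by less. RAB3GAP1, a subunit of a Rab GTPase regulator, had a log2 fold change of 0.82 and CCNT2, a cyclin of the elongation factor P-TEFb, one of 0.55, while ZRANB3 was at 0.16 and did not pass the threshold. TMEM163, the next gene along the chromosome, was under the filter, with 35 and 26 counts in KO libraries and 60 and 55 counts in WT libraries (-0.89 without a filter). The 50 nearest tested genes had a median of 0.50. With the local median level removed from each library, MGAT5 remained higher at 1.42, the lowest value among the alternatives run. That setting does not subtract the median fold change of 0.50.

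**Figure D3:**
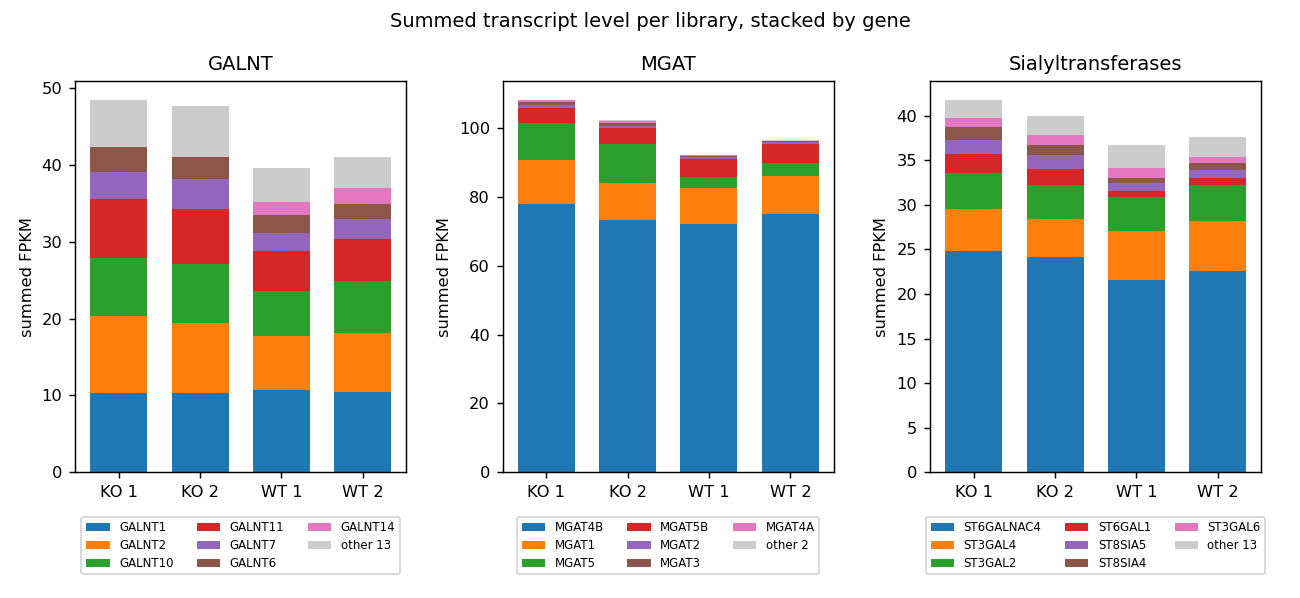
Summed FPKM of the GALNT, MGAT and sialyltransferase families in each library, stacked by gene, KO left of WT. GALNT14 is visible in WT bars only, the MGAT5 segment makes 9.98% and 11.2% of the MGAT bar in KO against 3.61% and 3.66% in WT, and ST6GALNAC4 is the largest sialyltransferase segment in all 4 libraries.

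Several MGAT members under the filter were higher too, read from raw counts in a fit with no filter on low values. That fit held 30992 genes, of which 25.7% passed the threshold, 12.3% higher and 13.4% lower, and of the 86 members 77 could be tested and 39 passed, 26 higher and 13 lower. MGAT4A, which adds the same β1,4 branch as MGAT4B, had 191 and 163 counts in KO libraries, against 32 and 45 counts in WT libraries. The summed counts, scaled to library size, gave a ratio of 4.71 (95% exact interval 3.67 to 6.10, counting error only), and the adjusted p was 1.02e-25 by edgeR quasi-likelihood test, BH-adjusted. MGAT4A nevertheless made only 0.905% and 0.936% of the summed MGAT4 FPKM in KO libraries, against 0.175% and 0.228% in WT libraries. The tested genes around MGAT4A had a median log2 fold change of 0.46, and the part of that in its own value was not tested.

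MGAT3, which adds the bisecting GlcNAc, had 117 and 105 counts in KO libraries, against 27 and 28 counts in WT libraries. Its ratio was 4.13 (95% exact interval 3.06 to 5.66; adjusted p = 2.89e-15 by the same edgeR test), with 2 of 2 KO libraries higher. MGAT4C, a further member of the MGAT4 group, had 77 and 81 counts in KO libraries and 45 and 45 counts in WT libraries, a ratio of 1.80 (1.38 to 2.36), and did not pass with DESeq2 or without KO replicate 2. MGAT2, which starts the second antenna, had 69 and 46 counts in KO libraries and 57 and 48 counts in WT libraries, and the groups overlapped. AL139099.1 on the opposite strand shares 91.9% of the exonic bases of MGAT2, so its counts may include reads of that gene. MGAT4D had 0 counts in all 4 libraries. Summed over the family, MGAT transcripts were at 105 ± 4.22 FPKM in KO and 94.3 ± 3.05 FPKM in WT (SD, n = 2 each).

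Chain extension held members that moved in both directions. Of 26 B3GNT, B3GALT, B4GALT and B4GALNT genes, 17 were tested: 8 were higher, 6 were lower and 3 did not pass the threshold. Their median log2 fold change was 0.18. The sum of the 7 B4GALT genes was 60.7 ± 0.136 FPKM in KO and 59.3 ± 0.498 FPKM in WT (SD, n = 2 each), and that of the 10 B3GNT genes was 17.65 ± 0.0439 FPKM in KO and 16.8 ± 0.0134 FPKM in WT. The 5 B3GALT genes summed to 24.98 ± 2.24 FPKM in KO and 26.1 ± 0.244 FPKM in WT, with overlapping libraries, and the 4 B4GALNT genes to 11.6 ± 0.210 FPKM in KO and 9.36 ± 0.332 FPKM in WT, higher in 2 of 2 KO libraries.

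Among the B3GNT genes, which add β1,3-linked GlcNAc, B3GNT3 was higher and B3GNT2 was lower. B3GNT2, the main enzyme of poly-N-acetyllactosamine and the family's most abundant transcript in WT libraries and over all 4, was at 3.84 and 4.42 FPKM in KO libraries, against 5.36 and 5.53 FPKM in WT libraries. Its log2 fold change was -0.40 (adjusted p = 9.54e-03, edgeR quasi-likelihood test, BH-adjusted). The call was lost without WT replicate 2, at -0.38, and without KO replicate 1, at -0.29. B3GNT3, which extends core 1 O-glycans, was at 5.02 and 4.68 FPKM in KO libraries, against 2.46 and 2.43 FPKM in WT libraries (log2 fold change 0.99, SE 0.132, adjusted p = 4.08e-05). Its order relative to B3GNT2 differed between the groups: B3GNT3 was above B3GNT2 in both KO libraries and below it in both WT libraries.

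B3GNTL1 had the largest log2 fold change among the tested extension genes, but it passed the filter only through KO libraries and so had to be higher. It was at 2.08 and 1.97 FPKM in KO libraries, against 0.820 and 0.703 FPKM in WT libraries (log2 fold change 1.41, SE 0.132, adjusted p = 2.16e-06 by edgeR quasi-likelihood test, BH-adjusted). The p-value of B3GNTL1 is thus no independent support, and TBCD on the opposite strand shares 11.4% of its exonic bases. Among extension genes that passed the filter in both groups, B3GALT4 had the largest value, 1.20. B3GNT10 was at 2.61 and 2.88 FPKM in KO libraries, against 3.73 and 4.17 FPKM in WT libraries (-0.53, adjusted p = 5.46e-03), and without WT replicate 2 its value of -0.45 did not pass. FBXW2 on the opposite strand shares 16.1% of the exonic bases of B3GNT10. B3GNT5, which starts lacto-series glycolipids, and B3GNT9 did not pass the threshold; B3GNT5 was at -0.19 and B3GNT9 at -0.23. B3GNT5 passed as lower without KO replicate 1 (-0.32) and on the TPM scale (-0.35). Genes on the opposite strand share 16.2% of the exonic bases of B3GNT5 and 14.9% of those of B3GNT9.

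Of the B3GALT genes, 2 of 5 were tested and they moved apart. B3GALT4, the synthase that makes ganglioside GM1, was at 5.10 and 4.26 FPKM in KO libraries, against 1.90 and 2.18 FPKM in WT libraries. Both KO libraries were well above both WT libraries, with a log2 fold change of 1.20 (SE 0.149, adjusted p = 2.30e-05, edgeR quasi-likelihood test, BH-adjusted). B3GALT6, which adds a galactose of the linker between proteoglycan core proteins and their glycosaminoglycans, was the more abundant, at 20.8 and 18.3 FPKM in KO libraries and 23.7 and 23.1 FPKM in WT libraries. It was lower at -0.26 (adjusted p = 0.0116), was not called without WT replicate 1 (-0.24) or KO replicate 2 (-0.17), and turned to 0.14 with the local median removed.

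All 7 B4GALT genes, which add β1,4-linked galactose, were tested, and 3 were higher, 3 lower and B4GALT4, at 0.18, did not pass except with the local median removed (0.32). B4GALT5 and B4GALT6, which make lactosylceramide, the entry point of most glycosphingolipids, were both higher. B4GALT6 was at 10.1 and 11.2 FPKM in KO libraries, against 7.55 and 7.36 FPKM in WT libraries (log2 fold change 0.52, adjusted p = 1.30e-04, edgeR quasi-likelihood test, BH-adjusted), and B4GALT5 had a log2 fold change of 0.32 (adjusted p = 2.00e-03), which did not pass on the TPM scale at 0.15. B4GALT7, which adds the other galactose of the proteoglycan linker, was at 5.96 and 5.55 FPKM in KO libraries, against 8.10 and 7.92 FPKM in WT libraries (-0.47, adjusted p = 3.40e-04).

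The B4GALT genes that act mainly on GlcNAc-ended chains had smaller differences. B4GALT2, the most abundant, was at 13.8 and 13.2 FPKM in KO libraries and 15.8 and 16.0 FPKM in WT libraries (-0.23, adjusted p = 0.0132, edgeR quasi-likelihood test, BH-adjusted). B4GALT3 was at -0.23 (adjusted p = 0.0492) and B4GALT1 at 0.22 (adjusted p = 0.0410). None of the 3 held in every setting: B4GALT2 was not called without either WT replicate (-0.24 and -0.23) and was at 0.13 with the local median removed. B4GALT3 lost its call in 6 settings, among them those without WT replicate 1 (-0.20), WT replicate 2 (-0.26) or KO replicate 2 (-0.14), and PPOX shares 28.7% of its exonic bases on the opposite strand. B4GALT1 lost its call in 8 settings, among them those without WT replicate 1 (0.15), KO replicate 1 (0.23) or KO replicate 2 (0.21).

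Both tested B4GALNT genes were higher, by small amounts. B4GALNT4, which makes the GalNAc-GlcNAc unit called LacdiNAc, was at 7.38 and 7.26 FPKM in KO libraries and 6.38 and 5.80 FPKM in WT libraries (log2 fold change 0.27, adjusted p = 0.0208, edgeR quasi-likelihood test, BH-adjusted). B4GALNT1, the synthase of gangliosides GM2 and GD2, was at 0.35 (adjusted p = 5.18e-03), and SLC26A10 shares 26.7% of its exonic bases on the opposite strand. B4GALNT1 did not pass on the TPM scale (0.18) or with the local median removed (0.19). B4GALNT4 did not pass in 5 settings, among them the TPM scale (0.10), DESeq2 (0.27) and the fit without WT replicate 2 (0.19). B4GALNT3, the other LacdiNAc enzyme, was under the filter, with 78 and 65 counts in KO libraries and 33 and 44 counts in WT libraries. B3GNT4, a further poly-N-acetyllactosamine enzyme with 20.7% of its exonic bases shared on the opposite strand, had 78 and 77 counts in KO libraries and 39 and 43 counts in WT libraries. Both passed as higher without a filter, with ratios of 1.90 (95% exact interval 1.43 to 2.54) and 1.94 (1.47 to 2.56), but neither passed with DESeq2, nor B4GALNT3 without WT replicate 1 (0.74 on the log2 scale).

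Sialic acid capping was tested in 7 of 20 members: ST6GAL1, ST8SIA4 and ST8SIA5 were higher, ST3GAL4 was lower, and ST3GAL2, ST3GAL6 and ST6GALNAC4 did not pass. The 3 higher genes passed the filter only through KO libraries, so they had to be higher. The share called, 57.1%, is near the 50.3% of all tested genes that passed. Without a filter, 3 of 16 sialyltransferases were higher and 3 lower. ST6GAL1 (chromosome 3, 186930485 to 187078553, plus strand) encodes the main α2,6-sialyltransferase of N-glycans. It was at 2.12 and 1.82 FPKM in KO replicates 1 and 2, against 0.713 and 0.794 FPKM in WT replicates 1 and 2. KO was 2.62-fold above WT, a log2 fold change of 1.39 (SE 0.123, adjusted p = 1.34e-06, edgeR quasi-likelihood test, BH-adjusted). On the log2(FPKM + 1) scale of limma the value was 0.76, since a pseudocount of 1 shrinks low genes. Because ST6GAL1 passed the filter only through KO libraries, both KO libraries had to lie above both WT libraries. Its p-value is therefore no independent support. ST6GAL2 had 0 counts in all 4 libraries.

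Of the α2,3-sialyltransferases, ST3GAL4 was lower and the other 2 tested did not pass the threshold. ST3GAL4, which caps lactosamine chains, was at 4.69 and 4.34 FPKM in KO libraries, against 5.54 and 5.72 FPKM in WT libraries (log2 fold change -0.31, adjusted p = 9.13e-03, edgeR quasi-likelihood test, BH-adjusted), and did not pass without WT replicate 2 (-0.30). ST3GAL2, which acts on gangliosides and O-glycans, was at 0.02 with overlapping groups, and its sign turned with total-count scaling (-0.05) and on the TPM scale (-0.15). ST3GAL6, at 0.38, did not pass either (adjusted p = 0.125), but did without WT replicate 1 (0.73). ST6GAL1 made 16.8% and 15.3% of the summed ST3GAL and ST6GAL level in KO libraries, against 5.99% and 6.67% in WT libraries. No test compared ST6GAL1 with ST3GAL4 directly.

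ST6GALNAC4, which adds α2,6 sialic acid to sialylated core 1 O-glycans, was the most abundant sialyltransferase. It was at 24.8 and 24.1 FPKM in KO libraries and 21.5 and 22.5 FPKM in WT libraries, with a log2 fold change of 0.16 that did not pass the threshold (SE 0.0673, adjusted p = 0.0711, edgeR quasi-likelihood test, BH-adjusted). The value was -0.01 on the TPM scale, and the gene passed as higher at a filter of 5 FPKM (0.18) and with the local median removed (0.46). It held 59.4% and 60.3% of all sialyltransferase FPKM in KO libraries and 58.7% and 59.9% in WT libraries.

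The α2,8-sialyltransferases ST8SIA4 and ST8SIA5 passed the filter only through KO libraries, so that both had to be higher, and their p-values are no independent support. ST8SIA5, which makes polysialylated gangliosides, was at 1.59 and 1.56 FPKM in KO libraries, against 0.858 and 0.960 FPKM in WT libraries (log2 fold change 0.79, SE 0.0959, adjusted p = 1.90e-05, edgeR quasi-likelihood test, BH-adjusted). ST8SIA4, a polysialyltransferase of the neural cell adhesion molecule, was at 1.41 and 1.15 FPKM in KO libraries, against 0.637 and 0.721 FPKM in WT libraries (0.92, SE 0.151, adjusted p = 2.35e-04). The summed ST8SIA level was 3.14 ± 0.259 FPKM in KO and 1.88 ± 0.125 FPKM in WT (SD, n = 2 each). ST8SIA1, the GD3 synthase, had 44 and 43 counts in KO libraries and 66 and 45 counts in WT libraries and did not pass without a filter. ST8SIA2 and ST8SIA3 had 0 counts throughout.

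Under the filter, 2 sialyltransferases passed as lower in KO. ST6GALNAC5, known for ganglioside GD1α and for brain metastasis of breast cancer, had 16 and 12 counts in KO libraries, against 68 and 39 counts in WT libraries, which is 3.73-fold more in WT (95% exact interval 2.44 to 5.88; adjusted p = 1.10e-07, edgeR quasi-likelihood, BH, no filter). ST3GAL1, which caps core 1 O-glycans, had 0 and 0 counts in KO libraries, against 11 and 19 counts in WT libraries, and was at least 9.77-fold lower in KO at a floor of 3 counts over the group (adjusted p = 2.38e-06). Both KO libraries were thus empty for ST3GAL1, at a WT level of only 0.0474 and 0.0788 FPKM. The GALNT genes GALNT8 and GALNT12 also passed in this fit. GALNT8 had 2 and 3 counts in KO libraries and 27 and 23 counts in WT libraries, but shares 62.7% of its exonic bases with AC005833.1 and KCNA6 on the same strand, so that its reads cannot be told from theirs. GALNT12 was higher with 53 and 41 counts in KO libraries and 34 and 17 counts in WT libraries (0.89, adjusted p = 0.0136). AL136084.2 on the opposite strand shares 21.1% of its exonic bases. The call was lost with DESeq2 and without WT replicate 2 (0.45), KO replicate 1 (0.78) or KO replicate 2 (0.97).

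**Figure D4:**
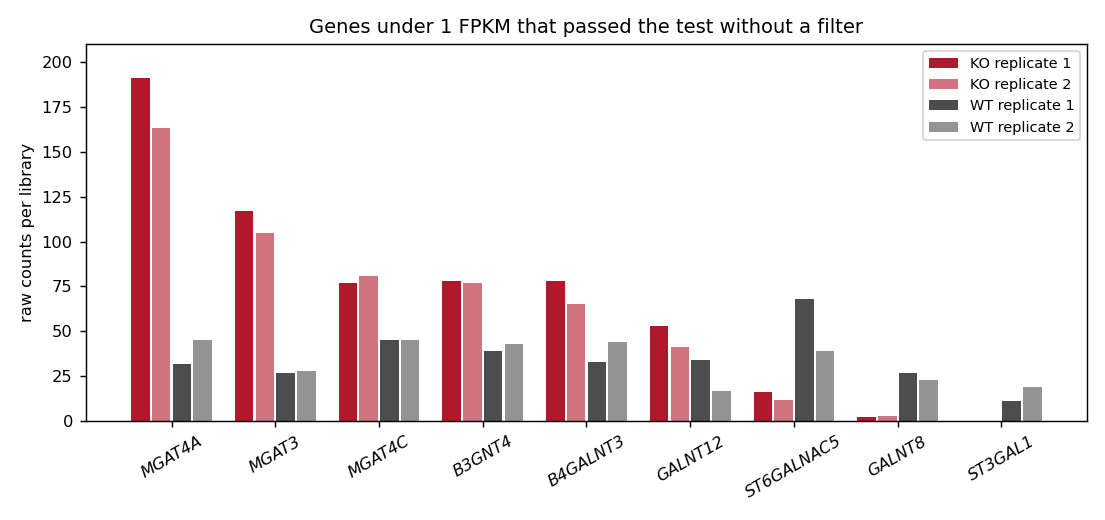
Raw counts per library of the 9 members under the filter that passed the threshold in the fit without a filter, KO bars left of WT bars. MGAT4A (191 and 163 against 32 and 45) and MGAT3 (117 and 105 against 27 and 28) show the widest gaps upward, and ST3GAL1 has no KO bar because both KO counts are 0.

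The FUT family had overlapping totals, with 12.4 ± 0.662 FPKM in KO and 12.2 ± 0.920 FPKM in WT over 11 genes (SD, n = 2 each). Not all of its members cap chains. Of the 4 tested, FUT10 and FUT11 were higher, FUT8 was lower and FUT4 did not pass the threshold. FUT8, which adds the core α1,6 fucose of N-glycans and is the family's most abundant transcript, was at 4.23 and 4.27 FPKM in KO libraries and 4.85 and 5.11 FPKM in WT libraries (log2 fold change -0.22, adjusted p = 0.0338, edgeR quasi-likelihood test, BH-adjusted). FUT8 lost its call in 5 settings, among them those without WT replicate 1 (-0.26), WT replicate 2 (-0.19) or KO replicate 1 (-0.21), and FUT8-AS1 shares 12.3% of its exonic bases. FUT10 was at 1.72 and 1.87 FPKM in KO libraries, against 1.25 and 1.19 FPKM in WT libraries (0.56, adjusted p = 3.00e-03). FUT11 was at 0.33 (adjusted p = 0.0286), lost its call in 7 settings, among them those without WT replicate 1 (0.19) or KO replicate 2 (0.25), and was at -0.02 with the local median removed; AC022400.8 on the opposite strand shares 11.6% of its exonic bases.

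FUT4, which makes Lewis X, was at -0.28 and did not pass (adjusted p = 0.0902, edgeR quasi-likelihood test, BH-adjusted), but did without WT replicate 1 (-0.43) and without KO replicate 2 (-0.39). FUT9, another Lewis X enzyme, was under the filter, with 155 and 166 counts in KO libraries and 185 and 171 counts in WT libraries, and did not pass without one. The fucosyltransferases of blood group H and Lewis antigens were barely detected: FUT1 had 4 and 1 counts in KO libraries and 11 and 8 in WT libraries, FUT2 had 10 and 16 in KO libraries and 9 and 13 in WT libraries, and FUT3, FUT5, FUT6 and FUT7 had at most 5 counts in any library. FUT4 shares 11.3% of its exonic bases with PIWIL4 on the same strand and 10.8% on the opposite strand. FUT3, FUT5 and FUT6 are closely similar genes on chromosome 19, so their few reads are uncertain.

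In all, 45 of the 86 members were under the filter, and 36 of these had at least 1 count. Of the 36, 9 passed without a filter, 6 higher and 3 lower, and 27 did not. Members with 0 counts in all 4 libraries were GALNT5, GALNT17, GALNTL5, MGAT4D, B3GNT6, ST6GAL2, ST6GALNAC1, ST8SIA2 and ST8SIA3, and a count of 0 over a group allows up to 3 counts. A further 7 members, GALNT9, GALNTL6, B3GALT2, B4GALNT2, FUT5, FUT6 and FUT7, had 1 to 3 counts in all. Summed over all 86 members, the level was 322 ± 7.55 FPKM in KO and 296 ± 5.57 FPKM in WT (SD, n = 2 each). This sum and the family sums were taken on the FPKM scale only. On the TPM scale the median of all tested genes moved to -0.17, and no sums were taken there, so their direction is given for FPKM alone.

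Other genes of glycosylation were described from 13 lists with 131 genes in the table. Of the 102 tested, 27 were higher, 21 were lower and 54 did not pass the threshold. The median log2 fold change of the 102 was 0.02. Over all tested genes, 25.1% were higher and 25.2% were lower. The list for UDP-GlcNAc and UDP-GalNAc, the donors of the MGAT, B3GNT and GALNT enzymes, had 2 of 11 genes higher and 5 lower. UAP1, which makes UDP-GlcNAc, was at 47.5 and 49.2 FPKM in KO libraries, against 127 and 122 FPKM in WT libraries (log2 fold change -1.36, SE 0.0635, adjusted p = 4.91e-09 by edgeR quasi-likelihood test, BH-adjusted). GFPT1, the rate-limiting enzyme of the hexosamine pathway, was at 6.46 and 6.31 FPKM in KO libraries, against 9.55 and 10.2 FPKM in WT libraries (-0.63, adjusted p = 5.81e-06). UAP1 and GFPT1 were thus lower in 2 of 2 KO libraries.

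The lists for the other donors had few calls. For CMP-sialic acid, 2 of 5 tested genes were lower and 3 did not pass: CMAS, which activates sialic acid, had a log2 fold change of -0.54 (adjusted p = 6.31e-05) and GNE, which starts sialic acid synthesis, one of -0.35 (adjusted p = 2.02e-03, both edgeR quasi-likelihood test, BH-adjusted). For GDP-fucose, TSTA3 was lower (-0.32) and the other 5 did not pass. For UDP-galactose, 2 of 6 were higher, among them GALM (0.32), UGP2 was lower (-0.26) and 3 did not pass. These counts are set beside 50.3% of all tested genes called.

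Among the O-glycan core enzymes outside the families, C1GALT1, the core 1 galactosyltransferase, was lower (-0.28, adjusted p = 8.50e-03) and its chaperone C1GALT1C1 was higher, at 12.6 and 12.6 FPKM in KO libraries, against 8.60 and 8.37 FPKM in WT libraries (0.57, adjusted p = 2.15e-04, edgeR quasi-likelihood test, BH-adjusted). Of 11 genes for I-branching, ABO and other terminal transfer, 3 were tested and all 3 were higher: A4GALT, the globotriaosylceramide synthase (0.86), CHST10, the HNK-1 sulfotransferase (0.47, with a median of 0.46 over its neighbours), and GCNT2, the I-branching enzyme (0.25). On O-fucose and Notch, B3GLCT, which adds glucose to O-fucose, was at 3.92 and 4.13 FPKM in KO libraries, against 1.92 and 2.04 FPKM in WT libraries (1.02, adjusted p = 6.36e-06). EOGT, which adds O-GlcNAc to EGF repeats, was higher at 0.27, and 4 of the 6 tested did not pass.

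The early steps of N-glycosylation had mixed small differences. Of 11 oligosaccharyltransferase subunits 4 were higher and OST4 was lower (-0.68), with STT3A, a catalytic subunit, at 0.33 and OSTC at 0.41. Of 17 genes of the dolichol-linked precursor 3 were higher and 4 lower, among them ALG10B (0.47), ALG6 (0.40) and DPM2 (-0.43). Of 9 trimming genes 2 were higher and 2 lower, with MANEA at 0.47, MAN1A1 at -0.48 and MOGS at -0.24. The COG complex and related Golgi genes had 4 higher and 3 lower of 13, with COG6 at 0.62, TMEM165 at 0.31 and GOLPH3, which retains glycosyltransferases in the Golgi, at -0.47. Sialidases and exoglycosidases had 3 higher and 1 lower of 10, with MANBA at 0.58, NEU3 at 0.33 and MAN2B1 at -0.28. The calls in each of these lists are near or under the 50.3% of all tested genes called, so they do not set these genes apart.

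Galectins bind the galactose-ended chains that several members build. LGALS3 was at 22.4 and 20.0 FPKM in KO libraries, against 11.2 and 10.7 FPKM in WT libraries (log2 fold change 0.95, SE 0.0850, adjusted p = 1.44e-06 by edgeR quasi-likelihood test, BH-adjusted). LGALS3BP, a secreted glycoprotein that galectin-3 binds, was at 11.5 and 10.9 FPKM in KO libraries, against 4.11 and 4.61 FPKM in WT libraries (1.36, adjusted p = 1.02e-07). LGALS1, the most abundant of the 3 tested, was at 828 and 715 FPKM in KO libraries and 736 and 704 FPKM in WT libraries. It did not pass the threshold. Transcripts of MGAT5, LGALS3 and LGALS3BP were higher in both KO libraries, while those of B3GNT2 and UAP1 were lower. Protein levels, enzyme activity and glycan structures were not measured.

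**Figure D5:**
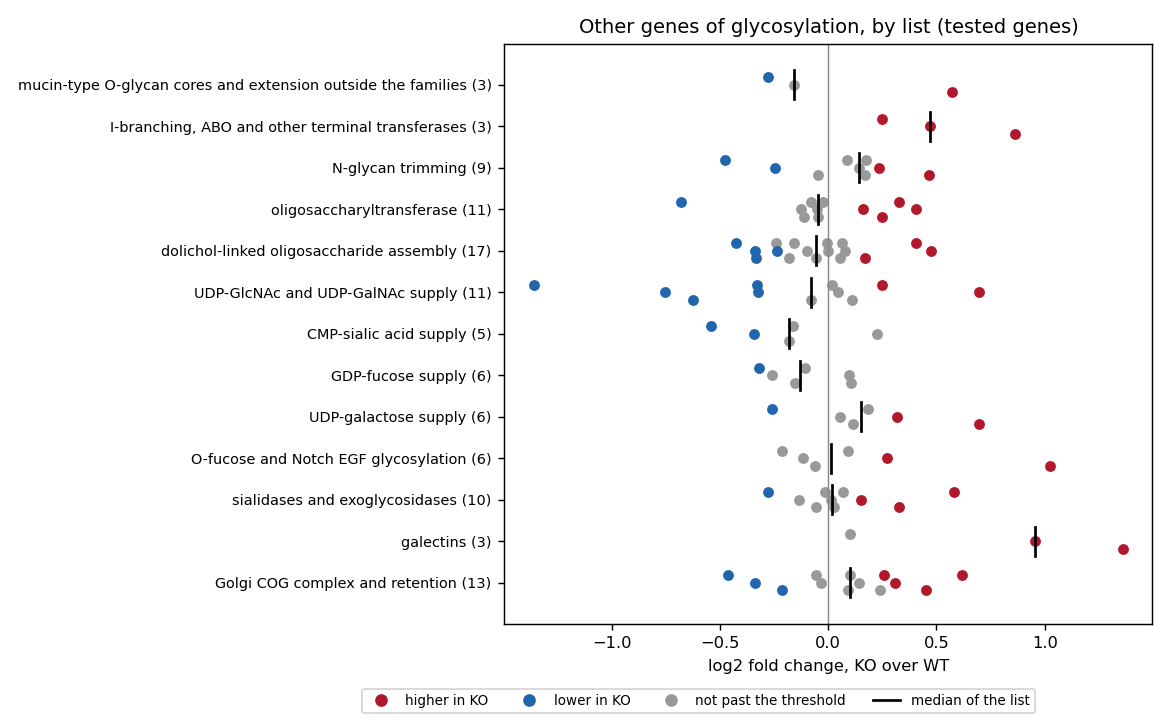
Log2 fold change, KO over WT, of each tested gene in 13 other lists of glycosylation genes (points; number tested in brackets; vertical bars, list medians). UAP1 is the leftmost point at -1.36 and LGALS3BP the rightmost at 1.36, and most points lie between -0.5 and 0.5.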

How the data were processed

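RNA was sequenced from 2 KO and 2 WT libraries of total RNA from H1299 cells, made with a TruSeq RNA kit, per the labels' protocols. The submitters' processing notes name HISAT2 2.0.5 and hg38; the counter, its strand setting and the annotation are not given in the sources used. The deposited table holds raw counts per gene and library, as its headers name them. FPKM values made by the authors are in the same table, and these counts, the deposited gene length and a library size of 0.965 to 1.02 of the total count give them back. The 13079 genes at 1 FPKM or more in 2 or more libraries were tested with edgeR 4.0.16 (R 4.3.3; quasi-likelihood test, TMM factors 0.978 to 1.02, two-sided, no covariates), with Benjamini-Hochberg adjustment over all tested genes at a threshold of 0.05. The common biological coefficient of variation was 0.0566, and the standard error of a fold change is its size divided by the root of F. Library totals were 25120500 to 28885443 counts.

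Ratios of summed counts have 95% exact intervals for counting error only; a group at 0 counts was set to a floor of 3. Alternatives used DESeq2 1.42.0 and limma 3.58.1 on log2(FPKM + 1) with a pseudocount of 1, among others. For the local-median fit, the median log2 level of up to 25 tested genes on each side was subtracted in each library before limma. It does not subtract the median fold change of those genes. The main fit and the DESeq2, limma, local-median, TPM, median-of-ratios and replicate-block fits were tested on simulated data. The fits without a filter, at 5 FPKM, with total-count scaling and with 1 library left out were not. In the simulation a small set of genes changed, about equally up and down, with no shift along chromosomes or in scale. In the real data 50.3% of tested genes passed. The simulation therefore cannot decide between the scalings or judge the local-median fit here. The table's coordinates equal those of a GENCODE annotation of GRCh38 for 99.98% of genes and for all 86 members, which gave exon overlaps. The rule for named genes took members past the threshold whose log2 fold change was 0.5 or more in size, the most abundant tested member of each family, up to 3 genes per list by smallest p, of which 1 is not reported here, and TTC28; other members are accounted for by family. Genes within 1 Mb of GALNT14 and MGAT5 were named for their position. The members and lists were chosen with earlier results of these data known. Promoter sequences are from RefSeq (GRCh38.p14).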

Additional observations from a re-analysis of the deposited data

How the results depend on the processing

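Of the 31 called members, 15 kept their call in every alternative that tested them: GALNT2, GALNT7, GALNT11, GALNT18, B3GNT3, B3GALT4, B4GALT6, B4GALT7 and FUT10, and also MGAT5, GALNT14, ST6GAL1, B3GNTL1, ST8SIA4 and ST8SIA5, for which this is no support, since they were chosen as extremes or passed the filter through 1 group. Of these genes only GALNT2, GALNT11, MGAT5, B4GALT6 and B4GALT7 reached 5 FPKM in 2 libraries, and the others were not tested in that alternative. Over the fold changes of the 41 tested members under these alternatives, 438 kept direction and side of the threshold, 47 were weaker, 15 stronger and 11 reversed. At 5 FPKM, 9 members were higher and 6 lower, beside 2169 and 2177 of all genes, and 17 list genes were higher. On the TPM scale all genes had 1917 higher and 5331 lower calls, and the lists 13 and 43; the median of all genes moved to -0.17 there and to -0.07 with total-count scaling, where 40.0% of calls were higher. Leaving out 1 library gave 2394 to 3193 higher and 2460 to 3263 lower calls over all genes, 19 to 20 higher and 3 to 9 lower members (3 without WT replicate 2), and 16 to 29 higher (16 without WT replicate 1) and 15 to 24 lower list genes; the lone library is then assumed to vary like the others. Members numbered 18 higher and 8 lower with DESeq2 and with limma, and 20 and 8 with the local median removed. Reversed signs were those of MGAT4B (total count -0.0241, TPM -0.127), MGAT1 (TPM -0.0336), ST3GAL2 (total count -0.0485, TPM -0.151, and from -0.0289 to 0.0597 with 1 library left out, below 0 without WT replicate 1 or KO replicate 1), ST6GALNAC4 (TPM -0.0129), and, with the local median removed, B3GALT6 (0.14), B4GALT2 (0.13) and FUT11 (-0.0174); the cause was not tested. The labels number the replicates 1 and 2 in both groups and do not say whether same-numbered libraries were prepared together. Their deviations from the group means had a correlation of -0.0014 over genes. With 2 libraries a group, that value cannot settle whether they are paired. With a replicate block all genes had 3515 higher and 3593 lower calls, the members 22 and 10, and the lists 28 and 23. The alternatives of the fit without a filter were chosen after seeing the data. With 2 libraries a group and about 25120500 to 28885443 counts each, members under 1 FPKM rest on few counts.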
